A study of Mus musculus with 42 samples.

Results

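The 10 genes described here are the granule, receptor and control genes of killer lymphocytes: Gzma, Gzmb, Gzmk, Prf1, Nkg7, Klrd1, Klrb1c, Ncr1, Eomes and Tbx21. They are 10 of the 49585 genes in a table of read counts, and were taken by symbol over all 13 groups of the study. The members were chosen by measured values, namely the lower Gzma count in irradiated p53 +/- than in irradiated p53-null thymus and the wide spread of these genes between libraries, both known from earlier work on the same table. That comparison is therefore given as a description.

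The study compared RNA from whole tissues of mice that carry mutant p53 with tissues of p53-null mice, at rest and under stress. It holds 42 libraries from mice of 4 weeks on a background of BALB/C and C57BL6 in equal parts. Irradiated thymus was taken 4 h after irradiation from 4 p53-null mice (Null), 4 p53 +/- mice (Het), 4 p53 AD/- mice (AD) and 4 p53 RP/- mice (RP). Thymus without irradiation (basal) was sampled from 3 AD, 3 Het and 2 Null animals. Intestine, liver and pancreas, all basal, were each sampled from 3 animals of AD and 3 of Null. The AD, RP and Het mice all carry 1 p53 allele opposite a null or missing one, so no group has 2 normal alleles. There was no irradiated tissue other than thymus and no basal RP thymus, and irradiated and basal thymus came from different mice. The dose and the sex of the mice are not in the labels. Each library is a whole organ of 1 mouse, so for every value below fewer killer cells and less RNA per killer cell cannot be told apart.

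Killer cells, that is natural killer (NK) cells, cytotoxic CD8 T cells and related innate lymphocytes, store proteases called granzymes together with the pore protein perforin in secretory granules, and release them onto a bound target cell. Inhibitory and activating receptors set when this happens, and a pair of T-box transcription factors, T-bet (Tbx21) and Eomesodermin (Eomes), control the programme. In the thymus such cells are a small minority among developing T cells. The intestinal epithelium, by contrast, is known for a dense population of granzyme-bearing intraepithelial lymphocytes.

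Irradiated thymus libraries held 26398761 to 33331829 counts and basal thymus libraries 27828884 to 31944233. The totals were 26000528 to 32487187 for liver, 24340398 to 34772519 for intestine and 19861977 to 24815911 for pancreas. Levels are given in CPM, the usual scaling of a gene's count by the total count of its library. The targeted gene, Trp53, still gave 19.5 to 20.8 CPM in irradiated Null thymus, against 29.8 to 32.6 CPM in Het, 33.4 to 39.5 CPM in AD and 32.3 to 36.4 CPM in RP. Thus its transcript counts lay lower in every Null thymus than in the other genotypes but were not at 0, and they overlapped between AD and Null in liver and pancreas but not in intestine. Among the 16 irradiated libraries 3 were set apart after their values were seen: Null-604, Het-631 and RP-653, named by genotype and animal number. They are treated with the members they touch.

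All 10 genes are protein-coding, and their positions are given on GRCm38. The granzyme genes Gzma (chromosome 13, 113093825 to 113100981, minus strand) and Gzmk (chromosome 13, 113171608 to 113225908, minus strand) are neighbours, while Gzmb lies on chromosome 14 (56258838 to 56262260, minus strand). Prf1 lies on chromosome 10 (61297833 to 61304680, plus strand) and Nkg7 on chromosome 7 (43437073 to 43438249, plus strand). The receptor genes Klrb1c (128778485 to 128789215, minus strand) and Klrd1 (129591782 to 129598775, plus strand) share a stretch of chromosome 6, and Ncr1 is on chromosome 7 (4337724 to 4345164, plus strand). Eomes is on chromosome 9 (118478212 to 118486132, plus strand) and Tbx21 on chromosome 11 (97098071 to 97115331, minus strand). Klrb1c has close paralogs and overlaps Gm44511 on the same strand, so its counts are uncertain. Gzmk and Eomes overlap Esm1 and Gm33460 on the other strand, and whether the counting used strand is not given in the sources used here.

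The windows upstream of Gzma, Gzmb and Prf1, the effector genes whose count ratios are given below for thymus and intestine, are shown from RefSeq (GRCm38.p6), 5′ to 3′ on the gene's strand. Capitals mark the letters TGTGGT or their reverse complement ACCACA, the core of the motif that Runx factors read. The window of Gzma is chr13:113100982-113101231, that of Gzmb chr14:56262335-56262584 and that of Prf1 chr10:61297586-61297832.
Gzma: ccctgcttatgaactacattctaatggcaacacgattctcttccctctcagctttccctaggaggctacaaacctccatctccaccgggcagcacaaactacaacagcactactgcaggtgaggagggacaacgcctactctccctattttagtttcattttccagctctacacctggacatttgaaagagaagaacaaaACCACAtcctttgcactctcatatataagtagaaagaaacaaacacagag
Gzmb: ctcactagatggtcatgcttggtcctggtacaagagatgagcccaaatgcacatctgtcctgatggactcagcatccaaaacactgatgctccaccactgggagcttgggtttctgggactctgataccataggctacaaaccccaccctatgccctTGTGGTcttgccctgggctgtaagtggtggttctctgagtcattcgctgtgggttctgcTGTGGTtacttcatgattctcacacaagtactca
Prf1: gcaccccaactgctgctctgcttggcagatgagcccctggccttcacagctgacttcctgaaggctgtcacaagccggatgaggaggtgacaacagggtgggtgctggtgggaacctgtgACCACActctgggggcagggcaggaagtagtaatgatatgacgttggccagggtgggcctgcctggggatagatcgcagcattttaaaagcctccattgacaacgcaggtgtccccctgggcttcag

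The match began 50 bases upstream of the annotated start in Gzma, 93 and 34 bases upstream in Gzmb, and 130 bases upstream in Prf1. A RefSeq window was found for 9 of the 10 members, with 10 windows in all. On either strand, TGTGGT occurred in the windows of 6 of these 9 members (Gzma, Gzmb, Prf1, Nkg7, Klrb1c and Ncr1), against 14% of all 32851 mouse windows of 250 bases. The T-box letters AGGTGTG, searched on either strand, occurred in the window of Nkg7 alone, where they began 14 bases upstream of the RefSeq start and did not overlap its Runx match at 83 bases. Of all windows 5.1% held them. A match describes the letters of the window and shows neither binding nor a cause of any count.

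Across the 4 basal organs the summed CPM of the killer-cell genes was highest in intestine (115 to 178), followed by thymus (55.9 to 113), liver (2.12 to 4.21) and pancreas (0.352 to 0.738). Single genes differed from this order: Gzma still had 13 to 49 counts in each liver, whereas Gzmk in basal thymus (1 to 7 counts) and Eomes in intestine (1 to 9 counts) were near the limit of 3 counts. Per kilobase of exon, Gzma had the highest mean level of the 10 in both places, 50.3 CPM per kb in basal thymus and 94.7 CPM per kb in intestine. The order below it differed. In basal thymus it was followed by Nkg7 at 8.59, Prf1 at 2.05, Klrd1 at 1.91, Tbx21 at 1.01 and Gzmb at 1.0 CPM per kb. In intestine it was followed by Gzmb at 27.2, Nkg7 at 4.23 and Klrd1 at 1.22 CPM per kb, with Tbx21, Prf1, Ncr1, Gzmk, Klrb1c and Eomes each under the level of Klrd1. Tbx21 and Gzmb in thymus, and Tbx21 and Prf1 in intestine (0.425 and 0.418), were neighbours whose levels per kb lay within their spread.

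**Figure D1:**
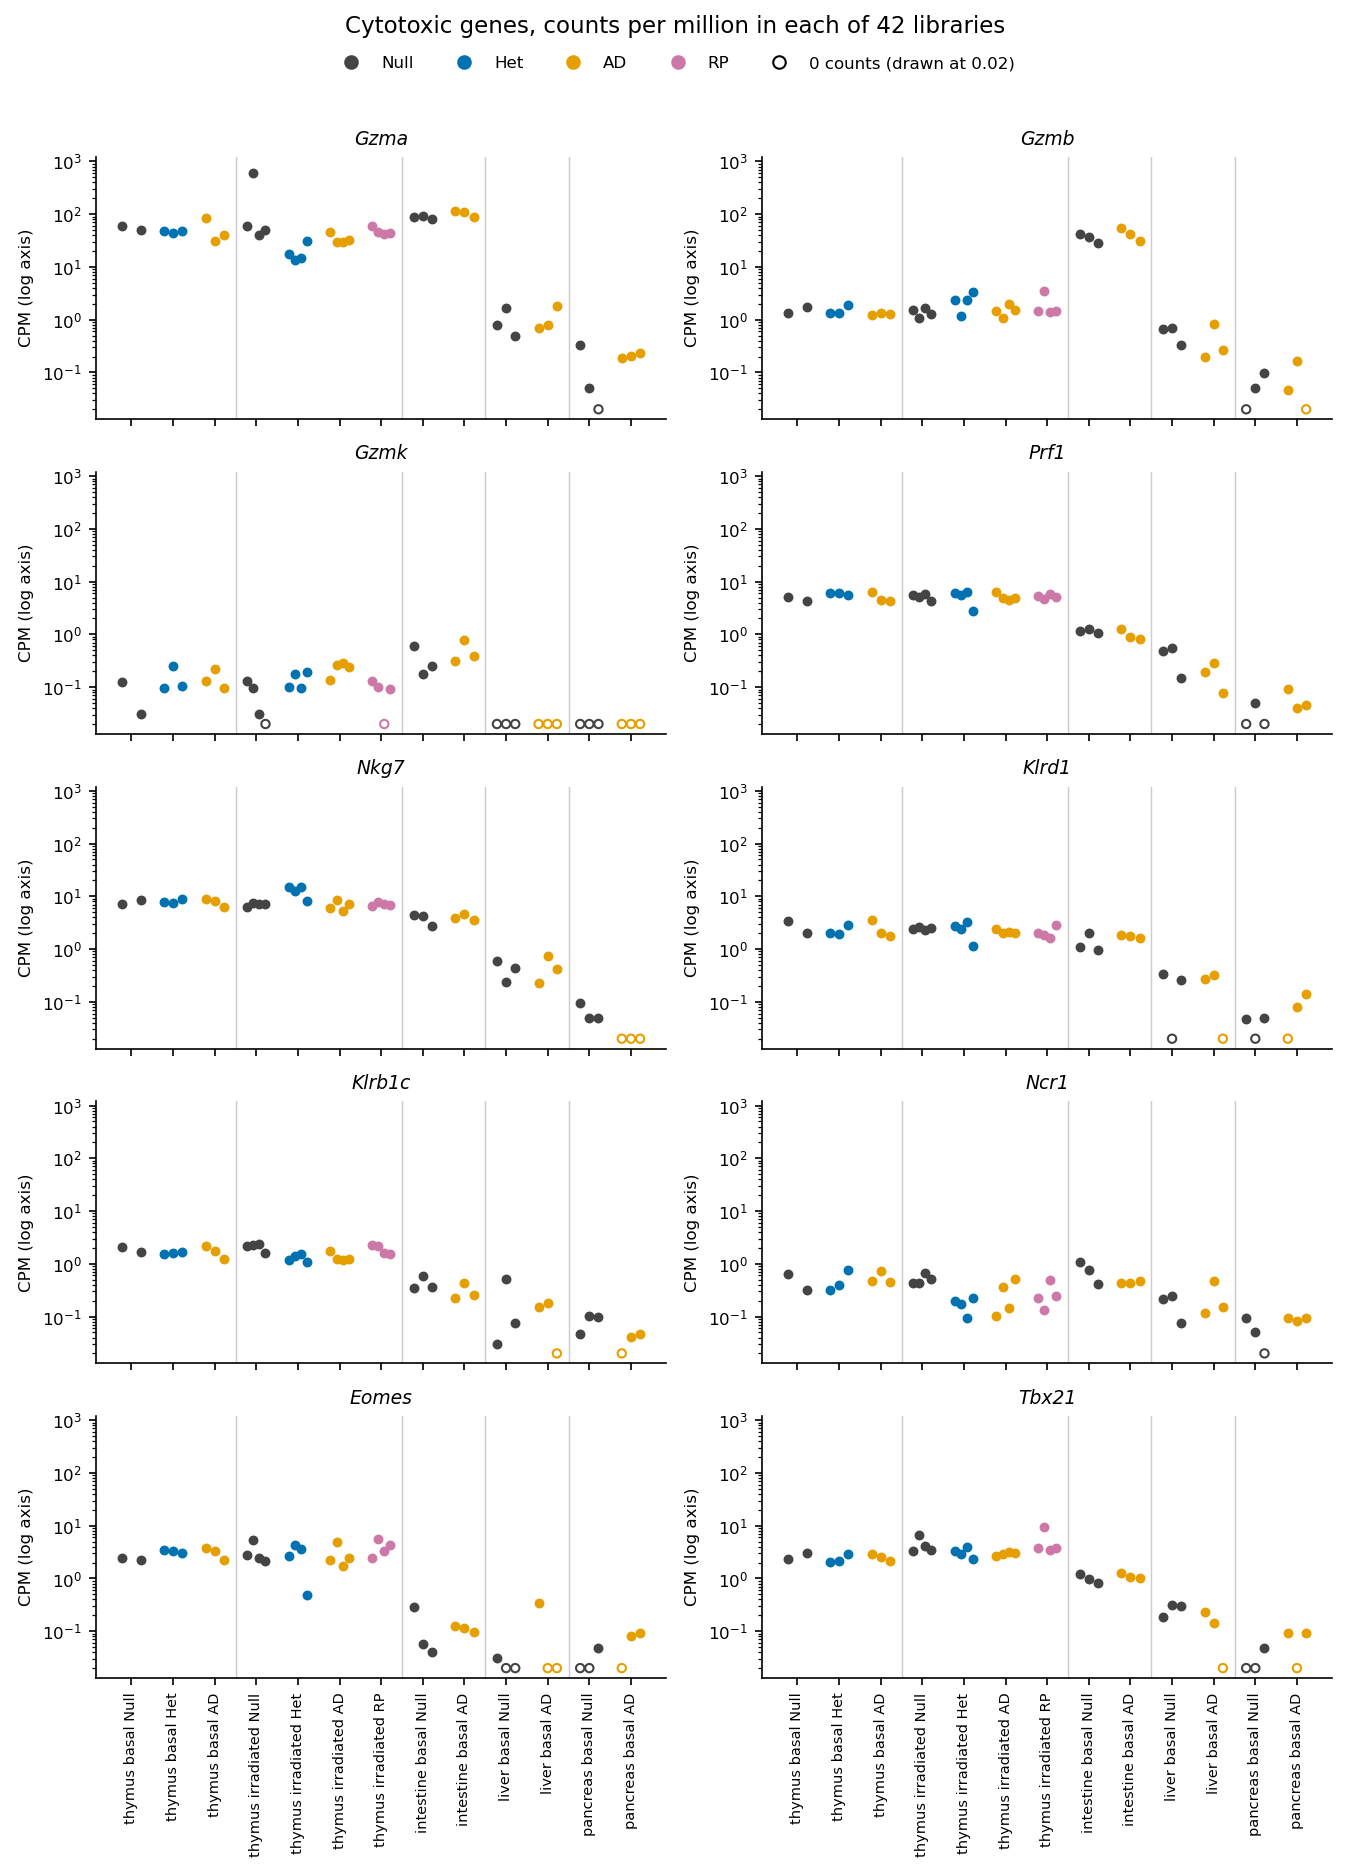
CPM on a log axis of the 10 members in each of the 42 libraries, 1 panel per gene, with the 13 groups along the horizontal axis, a filled point per library coloured by genotype and an open point at the bottom where a library has 0 counts. Gzma and Gzmb stand highest in intestine, Eomes and Prf1 in thymus, and Gzma of 1 irradiated Null library stands at 600.4 CPM.

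Among the granule proteases, Gzma, the tryptase-type granzyme, had 83.8, 31.3 and 41.1 CPM in basal AD thymus, 47.8, 43.6 and 47.1 CPM in Het, and 58.7 and 51.0 CPM in Null. In intestine it had 115.5, 108.4 and 87.8 CPM in AD and 89.7, 90.9 and 79.4 CPM in Null. Only the highest basal AD thymus reached into the intestinal range, and liver (0.484 to 1.85 CPM) and pancreas (0 to 0.328 CPM) lay far under both. Gzmb, the aspartate-cleaving granzyme that triggers apoptosis, had 1.22, 1.32 and 1.28 CPM in basal AD thymus and 1.36 and 1.72 CPM in Null, against 28.6 to 53.7 CPM in the 6 intestines. No thymus library, basal or irradiated, came near the lowest intestine. Liver (0.192 to 0.834 CPM) and pancreas (0 to 0.161 CPM) lay below every thymus.

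Gzmk, a granzyme of less differentiated T cells, was close to absent everywhere. It gave 6 to 27 counts in each intestine and 0 to 8 counts in each thymus. All 12 liver and pancreas libraries had 0 counts. Set against the limit of 3 counts that a count of 0 allows in each library, its mean in intestine, 0.417 CPM, was at least 3.62-fold higher than in liver and at least 2.76-fold higher than in pancreas.

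Perforin (Prf1), which opens the way for granzymes, went the other way from Gzmb. It had 4.26 to 6.43 CPM in the 8 basal thymuses, against 0.828 to 1.28 CPM in the 6 intestines, with no overlap. Nkg7, a granule membrane protein needed for granule release, had 6.36 to 8.84 CPM in basal thymus, 2.71 to 4.54 CPM in intestine and 0.23 to 0.725 CPM in liver. In pancreas it had 0 in all 3 AD libraries and 0.0491 to 0.0936 CPM in the Null ones. The latter are 1 to 2 counts each, under the limit of 3 counts. Here too the intestine lay below every basal thymus in CPM.

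The receptors were low in all organs. Klrd1 (CD94, the shared chain of the NKG2 receptors) had 1.77 to 3.60 CPM in basal thymus and 0.945 to 2.03 CPM in intestine, and these ranges overlapped. Klrb1c (NK1.1, an activating receptor) had 1.21 to 2.21 CPM in basal thymus and 0.22 to 0.58 CPM in intestine, which did not overlap. Ncr1 (NKp46, the defining receptor of NK cells and innate lymphocytes of group 1) had 0.313 to 0.766 CPM in basal thymus and 0.411 to 1.10 CPM in intestine, and its liver libraries reached 0.472 CPM.

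Of the control factors, Eomes had 2.22 to 3.83 CPM in basal thymus against 0.0411 to 0.29 CPM in intestine. Tbx21 had 2.09 to 3.07 CPM against 0.822 to 1.26 CPM. Both were lower in every intestine than in every basal thymus, but the gap was wider for Eomes: its count was 0.725 to 1.63 times that of Tbx21 in basal thymus and 0.05 to 0.237 times in intestine.

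Each organ's mean was tested against the mean of the other 3 in 1 fit of the 23 basal AD and Null libraries (edgeR quasi-likelihood test on counts, Benjamini-Hochberg adjustment over 24431 genes, called at an adjusted p under 0.05). Organs differ at most genes, so a called member is close to the norm here. For thymus against the rest, 9 of 10 members were called, 8 higher and Gzmb lower, where 74.2% of all genes were called. Gzmb in thymus was lower than a mean that includes intestine, but in CPM it lay above every liver and pancreas. For intestine 8 of 10 were called, all higher, against 63% of all genes, the others being Klrb1c and Eomes. For liver 3 of 10 were called (Gzma, Gzmb and Eomes, all lower) against 70.8% of all genes, and for pancreas 7 of 10, all lower, against 61.8%. With just 10 members, the shares in thymus, intestine and pancreas were close to those of all genes. With DESeq2 the thymus count was 8. The share in liver was below that of all genes.

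In that fit Gzma was 3.13 ± 0.24 (log2 fold change ± SE, edgeR, adjusted p = 1.63e-09) higher in thymus than in the mean of the other organs. Gzmb was 6.18 ± 0.20 higher in intestine (adjusted p = 3.26e-18). Gzmb in thymus (-0.86 ± 0.35, adjusted p = 0.0319) and Gzmk in thymus (1.88 ± 0.82, adjusted p = 0.048) stood close to the threshold. Gzmk lost its call in 22 of 27 alternative fits and Gzmb in 5 of 27. Eomes in liver (-2.05 ± 0.88, adjusted p = 0.0415) lost it in 8 of 27, Gzmb in liver and Klrb1c in pancreas in 2 of 27 each, and Ncr1 in intestine in 1 of 27. With DESeq2 the liver count was 6 members, and without 1 pancreas library, of AD-701 or of Null-923, it was 1.

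The direct comparison of intestine with thymus, which was added after the values were seen, called 8 of 10 members where 75% of all genes were called. Gzmb was higher in intestine by 5.28 ± 0.27 (edgeR, adjusted p = 3.55e-14), Gzmk by 2.33 ± 0.56 (adjusted p = 0.00122) and Gzma by 1.32 ± 0.26 (adjusted p = 0.000208). Eomes was lower by 3.91 on the log2 scale (SE 0.51, adjusted p = 1.85e-07), Klrb1c by 1.80 (SE 0.41, adjusted p = 0.00039) and Prf1 by 1.67 (SE 0.27, adjusted p = 5e-06). The 3 granzymes of the set were thus higher in intestine, while perforin and both transcription factors were higher in thymus.

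Tbx21 (-0.81 ± 0.31, adjusted p = 0.021) and Nkg7 (-0.51 ± 0.22, adjusted p = 0.0442) were also called lower in intestine, and Nkg7 lost its call in 10 of 27 alternative fits and Tbx21 in 1. Klrd1 (-0.23 ± 0.39, adjusted p = 0.608) and Ncr1 (0.69 ± 0.38, adjusted p = 0.107) did not pass. With the mouse as a block, which uses that the same animals gave the organs, the count stayed at 8.

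**Figure D2:**
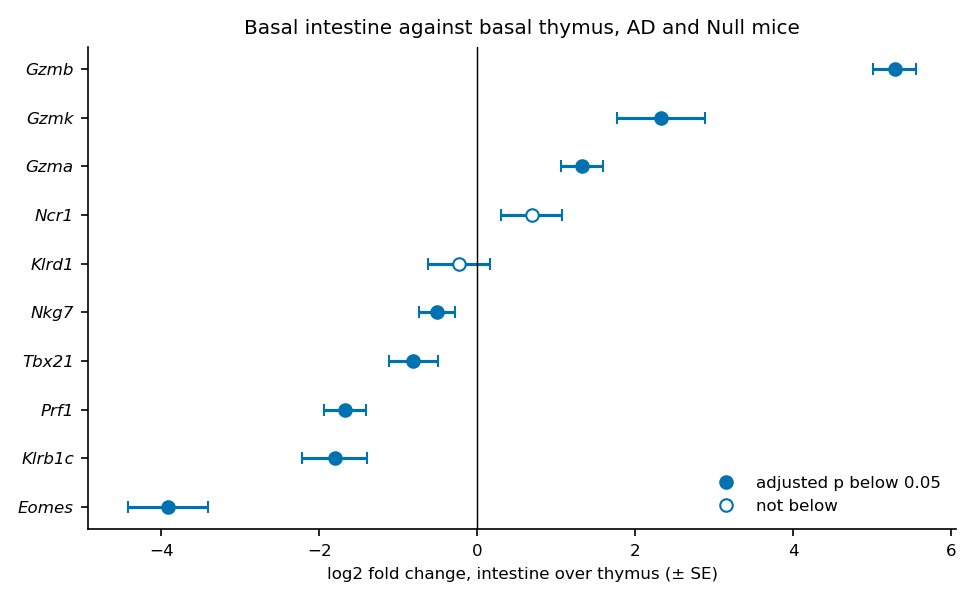
Log2 fold change with SE of each member in basal intestine against basal thymus, with positive values higher in intestine and open points where the adjusted p is not below 0.05. The 3 granzymes lie to the right of 0, and Eomes, Klrb1c, Prf1, Tbx21 and Nkg7 to the left of it.

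The balance within the set can be put as ratios of counts in the same library. Gzma exceeded Gzmb 2.15 to 2.86 times in the intestines and 23.7 to 68.6 times in the basal thymuses. Gzmb exceeded Prf1 26.8 to 47.3 times in the intestines, and was 0.19 to 0.404 times Prf1 in the basal thymuses. Neither ratio overlapped between the organs. Gzma alone supplied 63.3% to 69.3% of the members' summed CPM in intestine and 56.0% to 74.0% in basal thymus, so the sum of the set mostly follows this gene.

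Other genes of the killing machinery are given from the same comparison, in which 75% of all genes were called and the median over all genes tested was -0.14. Of 12 genes that load and release granules 5 were higher and 7 lower in intestine (median -0.92), with Unc13d and Stx11, which prime and fuse granules, at -3.02 ± 0.17 and -2.43 ± 0.20, and Lamp1, a general lysosome protein, at 1.57 ± 0.11. Of 5 inhibitors of granzymes and perforin 2 were higher and 3 lower (median -1.24). Among these the granzyme B inhibitor Serpinb9 was at -1.39 ± 0.14 and Serpinb6a at 3.39 ± 0.11. Of the 7 other granzymes 2 could be tested and neither was called.

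Of 29 other killer-cell receptors and their adaptors 26 were tested, with 5 higher and 10 lower in intestine (median -0.40). Cd247, the signalling chain of the T cell receptor, was at -6.95 ± 0.18. Of 8 cytokines and death ligands 7 were tested, with 3 higher and 1 lower (median 0.24): Tnfsf10 (TRAIL) at 2.21 ± 0.18 was the highest and Tnf at -2.30 ± 0.39 the lowest. Of 16 cytokine receptors and control factors 6 were higher and 7 lower (median -0.31), with Il15, the cytokine that sustains intraepithelial lymphocytes, at 2.96 ± 0.26, Prdm1 at 3.33 ± 0.30 and Ets1 at -4.54 ± 0.11.

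Markers of the cells that could carry the members moved as well. The 8 CD8 T cell markers, which thymocytes express too, summed to 37.4 to 56.0 CPM in intestine and 4090 to 4590 CPM in basal thymus. The 9 intraepithelial and gamma delta T cell markers summed to 75.0 to 101 CPM in intestine and 1140 to 1370 CPM in basal thymus. The 8 NK cell and group 1 innate lymphocyte markers that are not members summed to 151 to 182 CPM in intestine, 52.7 to 80.7 CPM in basal thymus and 154 to 177 CPM in liver, several of them being genes that other cells also express. No gene of these lists was at 0 throughout thymus or intestine. The intestine libraries also held pancreatic acinar transcripts, summing to between 598 and 78700 CPM, a sum that was 3.90 to 6.5 CPM in basal thymus. The part of any of these in the members' differences was not tested.

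Genotype made no difference that passed the test at any member outside the irradiated thymus. In basal thymus 9 members could be tested, Gzmk being too low. None was called for Het against Null, where 0.0676% of all genes were called, none for AD against Null (0.0676%) and none for AD against Het (0%). At an unadjusted p under 0.05, the members numbered 1 (Eomes), 0 and 0, against 1591, 1704 and 775 of all 22173 genes tested. DESeq2 called 0 members in each. In intestine 9 members were tested and none was called for AD against Null (0.015% of all genes). Gzma, higher in 2 of the 3 AD intestines than in every Null one, had 0.36 ± 0.11 (edgeR, adjusted p = 0.695). It was the 1 member at an unadjusted p under 0.05, where 1219 of all 20011 genes tested were. In liver 3 members were tested, Gzma, Gzmb and Nkg7, and none was called (0.267% of all genes). In pancreas none was high enough to be tested (0.0548% of all genes called). DESeq2 called no member in intestine or liver.

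In irradiated thymus the values of Gzma were 59.7, 600.4, 40.2 and 50.6 CPM in Null-593, Null-604, Null-856 and Null-857. They were 17.5, 13.5, 14.6 and 31.4 CPM in Het-594, Het-595, Het-603 and Het-631. The AD mice had 45.3, 29.3, 30.3 and 32.2 CPM, and the RP mice 60.2, 45.6, 42.1 and 44.8 CPM. All 4 Het libraries lay below every Null and every RP library, and below every basal thymus except that of AD-701, which lay just below the highest of them. AD overlapped Het through Het-631 and overlapped Null through its highest library. The library of Null-604 had 18370 Gzma counts, about an order of magnitude above the rest of its group.

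For Het against Null, the comparison used in choosing the members, 4 of 9 members tested were called and 19.2% of all genes were. The values are Gzma -3.28 ± 0.82 (edgeR, adjusted p = 0.0142), Ncr1 -1.51 ± 0.48 (adjusted p = 0.0333), Klrb1c -0.66 ± 0.20 (adjusted p = 0.0289) and Nkg7 0.92 ± 0.18 (adjusted p = 0.00121). Leaving out Null-604 changed the size of the Gzma difference to -1.33 ± 0.26 (adjusted p = 0.00387), and leaving out Het-631 as well to -1.63 ± 0.22 (adjusted p = 0.000285). In a fit of those 2 groups alone Gzma had an adjusted p of 0.118, and DESeq2 gave it no adjusted p.

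Nkg7 was the 1 member called higher in irradiated Het than in Null thymus. It had 6.25, 7.32, 7.23 and 7.12 CPM in irradiated Null thymus (6.98 ± 0.491, SD, n = 4) and 15.0, 12.7, 15.2 and 8.22 CPM in Het (12.8 ± 3.24). AD had 5.99, 8.62, 5.28 and 7.26 CPM (6.79 ± 1.47) and RP 6.47, 7.79, 7.15 and 6.79 CPM (7.05 ± 0.566). Every Het library lay above every Null and RP library, and only Het-631, the lowest Het, was reached by 1 AD library.

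In the comparisons that did not choose the members, Nkg7 was lower in AD than in Het by 0.96 on the log2 scale (SE 0.18, edgeR, adjusted p = 0.00123) and lower in RP than in Het by 0.89 (SE 0.18, adjusted p = 0.00179). It was the 1 of 9 members called in each, against 14% and 18.7% of all genes, so the share of the members was at or below that of all genes. These 2 comparisons use the same Het libraries as the one against Null and are no separate evidence about them. The genotype calls of Nkg7 were lost in none of the 21 alternative fits run for each.

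Gzma in the full fit was 0.80 ± 0.78 higher in AD than in Het (edgeR, adjusted p = 0.555) and 1.31 ± 0.78 higher in RP than in Het (adjusted p = 0.285), and neither passed. The groups share 1 estimate of the spread. Without Null-604, which belongs to neither comparison, the same differences had SEs of 0.25 and adjusted p of 0.045 and 0.00224 (edgeR). In that fit 2 members were called in each. The share of all genes called in that fit is not given here, so nothing is read from this count. In the full fit 3099 and 4163 of all genes were called. Over the leave-outs of single libraries, AD against Het called 2189 to 4665 of all genes. Against Null no member was called in AD (0.027% of all genes) or in RP (0.0315%), and none for AD against RP (0%). At an unadjusted p under 0.05 there were 2, 1 and 2 members, against 1774, 1151 and 1525 of all 22206 genes tested. DESeq2 called 0 members in each. Gzma was -2.48 ± 0.79 in AD against Null (adjusted p = 0.464), or -0.53 ± 0.26 without Null-604. In RP against Null it was -1.97 ± 0.77 (adjusted p = 0.924), or -0.02 ± 0.26 without that mouse. The comparisons with Null share the Null libraries. Because the Gzma values of the irradiated Het and Null libraries were used in choosing the members, the Gzma differences from Het and from Null are descriptions.

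The receptors were counted thinly in the irradiated thymus. Klrb1c had 2.20, 2.26, 2.41 and 1.63 CPM in Null, 1.16, 1.40, 1.55 and 1.10 CPM in Het, 1.71, 1.26, 1.19 and 1.23 CPM in AD and 2.23, 2.22, 1.59 and 1.51 CPM in RP. Het lay below every Null library, and AD lay in the range of Het except for 1 library that also reached into the Null range. Ncr1 had 0.433, 0.425, 0.680 and 0.508 CPM in Null, or 13 to 22 counts, and 0.199, 0.175, 0.0952 and 0.227 CPM in Het, or 3 to 6 counts. AD had 0.103 to 0.51 CPM and RP 0.134 to 0.50 CPM, which reached from the Het into the Null range. Het and Null did not overlap in either receptor, but the Klrb1c call of Het against Null was lost in 9 of 21 alternative fits and the Ncr1 call in 5 of 21. Klrd1 had 2.26 to 2.62 CPM in Null, 1.62 to 2.84 CPM in RP, 2.02 to 2.40 CPM in AD and 1.14 to 3.20 CPM in Het, which covered the range of the others.

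No comparison of Prf1 or Gzmb among the irradiated groups was called. Prf1 had 4.24 to 5.75 CPM in Null, 4.46 to 6.30 CPM in AD, 4.77 to 5.87 CPM in RP, and 5.97, 5.59, 6.44 and 2.80 CPM in Het. Gzmb had 1.08 to 1.70 CPM in Null, 2.39, 1.19, 2.35 and 3.41 CPM in Het, 1.09 to 2.01 CPM in AD, and 1.49, 3.56, 1.37 and 1.48 CPM in RP. Of the Het libraries 3 of 4, and 1 library each of AD and RP, thus stood above all Null libraries. Gzmb in Het against Null was 0.79 ± 0.32 (edgeR, adjusted p = 0.0962), which did not pass. It passed without Het-595 (1.03 ± 0.30, adjusted p = 0.0293) and without RP-653 (0.79 ± 0.26, adjusted p = 0.043). Gzmk, too low to be tested, had 0 to 4 counts in each Null and RP library, 3 to 5 in Het and 4 to 8 in AD. In CPM its AD libraries (0.137 to 0.288) lay above those of Null (0 to 0.133) and RP (0 to 0.129), by a few counts.

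No comparison of Eomes or Tbx21 among the irradiated groups was called. Tbx21 had 3.33, 6.80, 4.17 and 3.46 CPM in Null mice, with Null-604 highest, and 3.85, 9.27, 3.47 and 3.71 CPM in RP mice, with RP-653 highest. Het had 2.35 to 3.87 CPM and AD 2.67 to 3.24 CPM. All AD libraries lay below all Null and RP libraries, with -0.58 ± 0.30 against Null (edgeR, adjusted p = 0.67) and -0.78 ± 0.30 against RP (adjusted p = 0.683). Eomes had 2.79, 5.26, 2.44 and 2.17 CPM in Null, 2.65, 4.23, 3.58 and 0.492 CPM in Het, 1.73 to 4.94 CPM in AD and 2.40 to 5.61 CPM in RP. Its range in each group overlapped those of all others.

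**Figure D3:**
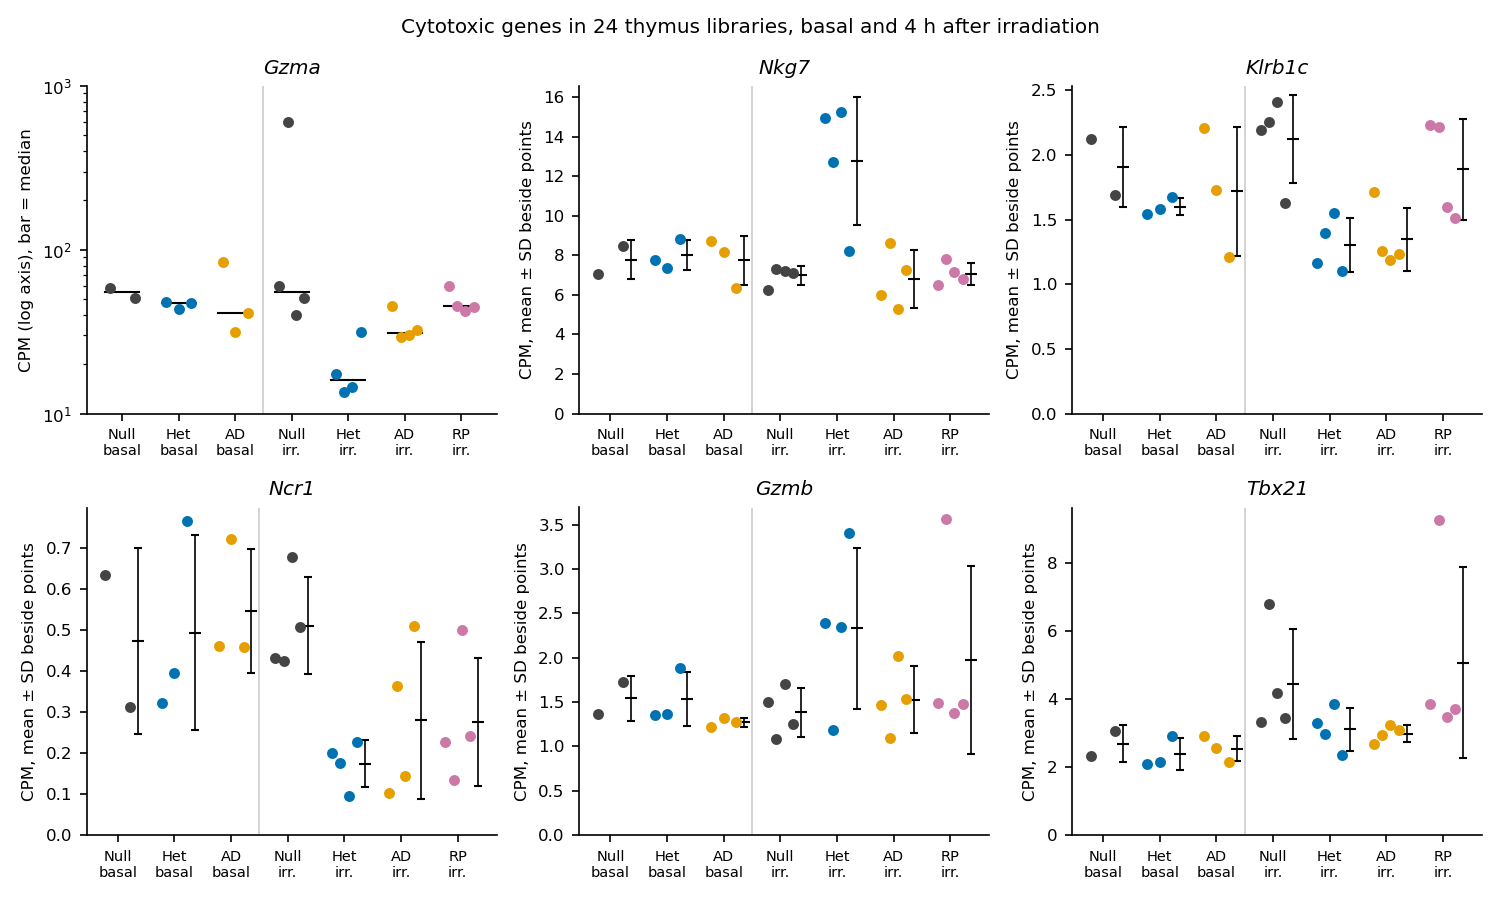
CPM of 6 members in the 24 thymus libraries, basal and irradiated (irr.), by genotype, with a point per library, a log axis and a bar at the group median for Gzma, and linear axes with the mean and SD beside the points for the others. For Nkg7 the 4 irradiated Het libraries lie at 8.22 to 15.2 CPM, and for Gzma they lie at 13.5 to 31.4 CPM.

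The irradiated and basal thymuses of a genotype were compared in 1 fit of all 24 thymus libraries, with 9 members tested. In Null none was called (0.131% of all genes) and in AD none (0.546%). At an unadjusted p under 0.05 there were 0 and 1 members, against 1717 and 2880 of all 23605 genes tested. DESeq2 called 0 members in both. In Het 2 of 9 were called against 16.8% of all genes. Nkg7 was 0.68 ± 0.18 higher after irradiation (edgeR, adjusted p = 0.00922) and Ncr1 was lower by 1.49 (SE 0.50, adjusted p = 0.0431). These calls rest on the irradiated Het libraries already described. Ncr1 lost its call in 6 of 28 alternative fits and Nkg7 in 2 of 29, and without basal Het-703 neither member was called.

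Gzma in Het was -1.27 ± 0.73 against basal (adjusted p = 0.275) in the full fit and -1.27 ± 0.31 (adjusted p = 0.00691) without Null-604, with all 4 irradiated Het libraries below the 3 basal ones. In Null it was 1.77 ± 0.87 in the full fit and -0.18 ± 0.36 without that mouse, so the sign for Null rested on that library, and neither value passed. The Gzma values of the irradiated Het and Null libraries were used in choosing the members, so these Gzma differences are a description and no fresh test.

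The response to irradiation was then compared between genotypes by an interaction term. For Het minus AD 1 of 9 members was called, Nkg7 at 0.91 ± 0.25 (edgeR, adjusted p = 0.0405), where 3.98% of all genes were called. That call was lost in 12 of 28 alternative fits. For Het minus Null no member was called (3.44% of all genes). Nkg7 stood at 0.88 ± 0.27 (adjusted p = 0.075). At an unadjusted p under 0.05 were 3 members, against 3637 of all 23605 genes tested, and DESeq2 called 1 member. For AD minus Null no member was called (0% of all genes), and DESeq2 called 0. At an unadjusted p under 0.05 was 1 member, against 972 of all genes tested.

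Other genes of the killing programme in irradiated Het against Null thymus are given for context, where 19.2% of all genes were called and their median was -0.01. Of 8 cytokines and death ligands 7 were tested, with 2 higher and 1 lower (median 0.46): the chemokines Ccl3 and Ccl4 at 3.62 ± 0.33 and 2.44 ± 0.29, and Tnfsf10 at -0.52 ± 0.13. Of 12 granule-handling genes 3 were higher and none lower (median 0.10), among them Unc13d at 0.48 ± 0.06 and Stx11 at 0.41. Of 2 other granzymes tested Gzmm was higher at 0.55 ± 0.13 (edgeR, adjusted p = 0.00615). Of 5 inhibitors 1 was higher.

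Of 25 other receptors and adaptors tested none was higher and 2 were lower (median -0.11): Klra3 at -0.82 ± 0.26 and Cd160 at -0.66 ± 0.13. Of 16 control factors 2 were higher and 1 lower, with Nfil3, a factor needed for NK cell development, at 0.80. In AD against Het the cytokine list had none higher and 4 lower, with Ccl3 at -4.34 ± 0.35, and in RP against Het none higher and 3 lower, against 14% and 18.7% of all genes called in either direction. The receptor list had 1 higher and 2 lower in AD, and 1 of each in RP.

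Markers of other cells also differed between the irradiated groups. The 8 NK and group 1 innate lymphocyte markers that are not members summed to 77.9 to 81.4 CPM in Het, 66.2 to 76.0 CPM in Null, 59.5 to 62.7 CPM in AD and 61.9 to 108 CPM in RP. That sum was thus highest in Het outside RP-653, whereas the group means of Gzma, Klrb1c and Ncr1 were lowest there. The thymic epithelium list summed to 1480 to 1700 CPM in Het and 998 to 1180 CPM in the other irradiated groups. The neutrophil list ranged from 36.2 CPM (Het-631) to 550 CPM within Het. CD8 T cell markers summed to 3480 to 4290 CPM in Het and 3810 to 4720 CPM in the others, and no marker of these lists was at 0 in all libraries of a group. Their part in the members' differences was not tested.

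**Figure D4:**
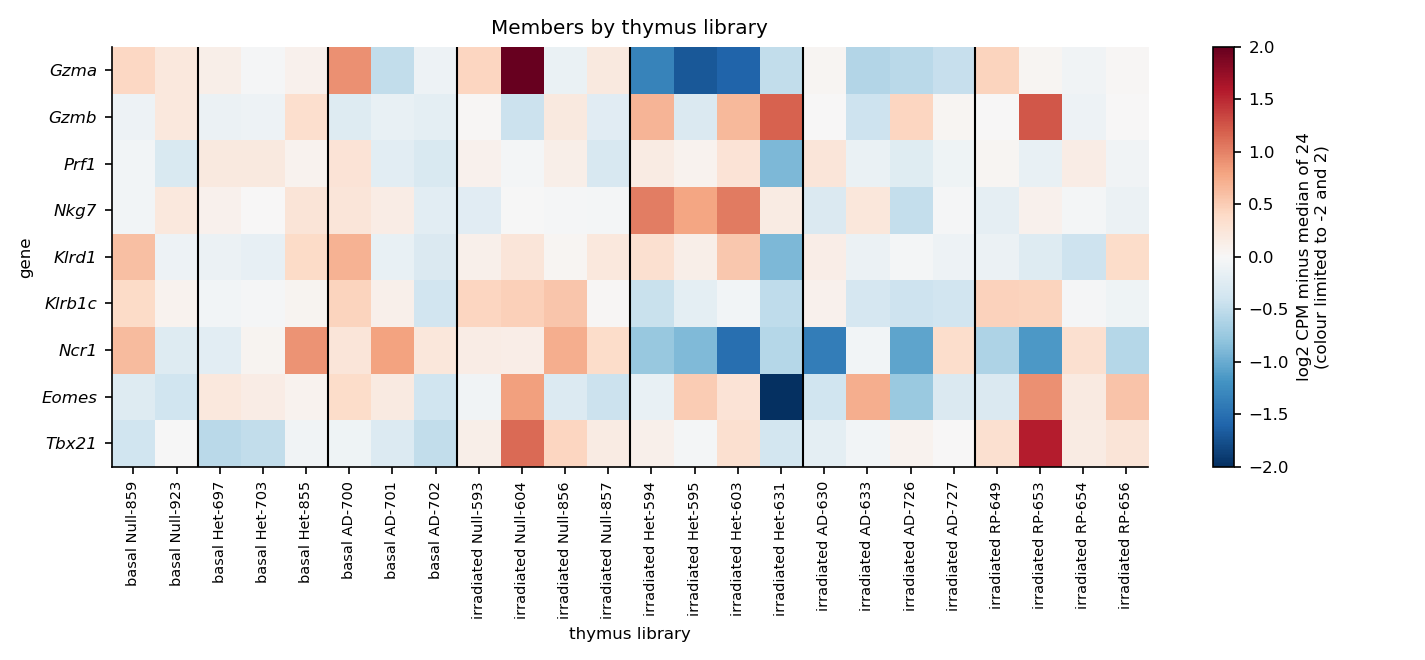
Log2 CPM of 9 members (Gzmk was too low) in the 24 thymus libraries, minus the gene's median over them, with colour limited to -2 and 2, as a coloured grid with libraries in columns by group and members in rows. Gzma of Null-604, Tbx21 and Gzmb of RP-653, and the low Eomes of Het-631 stand out as single squares of the grid.

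The members did not move as 1 block. Over the 24 thymus libraries, with group means removed, the correlation of log2 CPM between pairs of the 8 members with enough counts had a median of 0.305 over 28 pairs, from -0.427 to 0.787, the highest being Nkg7 with Eomes. Without the 3 libraries set apart the median over 21 libraries was 0.164, from -0.574 to 0.78, and Nkg7 with Eomes was 0.576. Of the 28 pairs 21 were above 0 over the 24 libraries and 23 over the 21. Prf1 with Klrd1 went from 0.708 to 0.404. These are descriptions, since differences in the makeup of the dissected organs, which all members share, were not separated.

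Each of the 3 libraries had its own pattern, looked up after their values were seen. In Null-604, 5830411N06Rik (272 CPM against 9.55 to 18.7 CPM in the other irradiated libraries) and Cd163l1 (24 CPM against 2.81 to 6.0 CPM) rose with Gzma, while the thymocyte markers summed to 7830 CPM, the lowest of the irradiated libraries. Nkg7, Prf1 and Klrd1 of that mouse lay in the range of its group or at its edge, so its Gzma stood high without the rest of the granule genes. Tbx21 and Eomes of that mouse (6.80 and 5.26 CPM) were the highest of the irradiated Null group, whose medians were 3.81 and 2.62 CPM. In RP-653, Cxcr6 (54.5 CPM against 7.13 to 15.0 CPM), Zbtb16 (77.6 CPM against 7.99 to 26.6 CPM) and Zfp683 (8.06 CPM against 0.303 to 2.88 CPM), genes of innate-like and resident lymphocytes, were high beside Tbx21 and Gzmb. Het-631 had high heart muscle Myh6 (291 CPM against 1.63 to 50.2 CPM) and the lowest Eomes, Prf1 and Klrd1 of all irradiated thymuses.

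The genes whose values followed the members' mean most closely over the 24 thymus libraries, again with group means removed, were Chd7 (r = 0.896), Adam19 (0.875), Crybg2 (0.875), Rps6ka1 (0.861), Galnt6 (0.86), Tlr1 (0.856), Fam83f (0.855), Lbh (0.851), Tnfaip8l2 (0.849) and Il27ra (0.848), of 14755 genes. Over the 18 intestine, liver and pancreas libraries just Gzma and Gzmb had enough counts to enter the mean, and they did so through their level in intestine. Gzmb had 5 to 23 counts in each liver and 0 to 4 in each pancreas, and Gzma 0 to 7 in each pancreas. The 2 genes correlated at -0.146 there, so their mean is no shared profile. Mgst3 came first (r = 0.869, of 11824 genes), which is a description of that mean alone.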

How the data were processed

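RNA-seq was read from 1 table of counts per gene for all 42 libraries. Per the submitters' processing notes, STAR 2.6.0b, the GRCm38 build and DESeq2 were used. The counting tool, annotation and strand setting are not given in the sources used here. The values are whole-number counts as the authors deposited them. Identifiers were matched to GENCODE M21 symbols without their version number (49326 matched, 259 did not). The 8 basal thymus columns name no tissue and were assigned as the only columns left for their animals.

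Counts were tested with edgeR 4.0.16 (filterByExpr, TMM scaling, robust quasi-likelihood F test, R 4.3.3) and adjusted by Benjamini-Hochberg over all genes of a fit, with calls at 0.05. SEs are the log2 fold change divided by the root of F. CPM in the text are counts over the plain library total, and log2 CPM uses a prior count of 2. CPM per kilobase use the union of GENCODE exons. Limits for a count of 0 use 3 counts and cover counting error only. The steps were tested on simulated data. No 2 libraries of the same group were copies: over 49 pairs of replicates, chi-square per degree of freedom was 4.04 or more. Pairs of libraries from different groups were not examined.

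Organs were paired by the animal numbers in the labels. Residuals of the same mouse in 33 pairs of organs correlated with a median of 0.0762 (-0.166 to 0.352) over 9680 genes. Alternatives were RLE scaling, no filter, DESeq2 1.42.0, only the groups compared, the mouse as a block and leaving out each library. Leaving out Null-604 with Het-631, and intestine against thymus, were added after seeing the data.

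The members and gene lists were chosen with earlier results of these data known. All members are named. At most 4 called genes per list were eligible to be named, by size of change, with a mean of 1 log2 CPM or more, and the 10 genes most like the members by correlation. The replicates are separate mice.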

Additional observations from a re-analysis of the deposited data

Results flagged for a closer look

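In 4 of 40 examinations of a member in a group of 4 irradiated libraries, 1 library stood far from the rest of its group. The cutoff gives about 1 in 20 for independent values that are spread normally, which the CPM of these genes need not be. The share over all genes by the same rule was not computed, so no excess over chance is read from the count. Since the members were chosen for their wide spread between libraries, these values are a description and no test. Gzma was 600.4 CPM in Null-604, a gap to the next library of 0.965 of the group's whole range. Gzmb was 3.56 CPM in RP-653 (0.948 of the range), and Tbx21 was 9.27 CPM in the same library (0.934). Klrb1c was 1.71 CPM in AD-630 (0.861). Het-631, which was set apart above, was not flagged by this rule.

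The response of Nkg7 to irradiation differed between genotypes by a test of the difference itself, an interaction term in edgeR: Het minus AD was 0.91 on the log2 scale (SE 0.25, adjusted p = 0.0405), a call lost in 12 of 28 alternative fits. Het minus Null was 0.88 (SE 0.27, adjusted p = 0.075) and AD minus Null -0.03 (SE 0.27, adjusted p = 0.999), and neither passed. All 4 irradiated Het libraries but that of Het-631 lay above every basal Het library, and the irradiated AD libraries spread over the basal AD range and below it.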

How the results depend on the processing

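No called member reversed its direction under any alternative run, while uncalled Gzma in irradiated against basal Null changed sign without Null-604. The number of members called moved in these comparisons. The count over all genes moved too in several of them, as given below, so these moves are not read as particular to the members. For liver against the other organs it was 6 with DESeq2 against 3, and 1 to 4 when single libraries were left out. For irradiated Het against Null it was 2 with only those groups against 4, and 2 to 5 when single libraries were left out, the lowest without Het-594 or Null-856 and the highest without RP-653. For AD against Het it was 2 without Null-604 and Het-631 together against 1, and 1 to 2 when single libraries were left out, the highest without Null-604. For RP against Het it was 2 with only those groups and 2 without both mice, against 1, and 1 to 2 when single libraries were left out, again highest without Null-604. For irradiated against basal Het it was 1 without a filter and 1 with only those groups against 2, and 0 to 3 when single libraries were left out: 3 without Null-604, 1 without Het-594, Het-595, Het-603 or Het-855 and 0 without Het-703. For the response of Het minus Null it was 1 with DESeq2 and 1 without both mice against 0, and 0 to 1 when single libraries were left out, the highest without Het-631. For Het minus AD it was 0 to 1, with 0 in 12 of the leave-outs.

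With the mouse as a replicate block the counts were 9 for thymus, 8 for intestine, 4 for liver, 8 for pancreas and 8 for intestine against thymus. No call was lost, and Klrd1 in liver and Ncr1 in pancreas were gained. The thymus groups share no animals, so no paired analysis was possible there.

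Counts over all genes, used as background, moved as well, by more than the members' counts in some comparisons only. For liver against the other organs and for RP against Het they moved less than in any comparison given here. Irradiated Het against Null called 4257 genes, and 2208 with only those groups. Irradiated against basal called 3972 in Het, and 2370 with only those groups. In Null it called 31, with 122 by DESeq2, 3 with only those groups and 222 without both mice, and in AD 129, with 316, 361 and 803. AD against Het called 3099, with 5707 without both mice and 2189 to 4665 when single libraries were left out. AD and RP against Null called 6 and 7, and 81 and 31 by DESeq2. AD against Null called 15 in basal thymus, 3 in intestine, 42 in liver and 8 in pancreas, with 172, 98, 201 and 52 by DESeq2 and 403, 50, 454 and 209 without a filter. Basal Het against Null called 15, with 109 and 353. AD against RP, and basal AD against Het, called 0, with 10 and 12 by DESeq2. The responses called 811 for Het minus Null and 940 for Het minus AD, and 1600 and 2212 without both mice. When single libraries were left out they called 442 to 1329 and 611 to 1584, and DESeq2 called 1217 for Het minus Null. The cause of these moves was not tested. Low counts limit Gzmk in thymus, Ncr1 throughout, and most members in liver and pancreas, which had too few for a genotype test there.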
